A study of Cyprinus carpio with 6 samples.

Results

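Superoxide dismutases and catalase were followed in the brain of common carp (Cyprinus carpio), a freshwater fish, with and without exposure to lead. The genes were chosen by their description in the deposited gene table, either containing "superoxide dismutase" or starting with "catalase" once the database prefixes PREDICTED and LOW QUALITY PROTEIN were set aside. This gave 11 of 53152 genes. They were 1 cytosolic copper-zinc superoxide dismutase, 1 copper chaperone for superoxide dismutase, 7 extracellular superoxide dismutase copies and 2 catalase copies. A symbol other than a locus number was given for 1 of them (ccs). The prefix LOW QUALITY PROTEIN was carried by 4 of the 11, and setting it aside is what added catalase LOC109050889. Messenger RNA of brain was sequenced in 6 libraries, 3 from the control group, labelled with no agent, and 3 from the group labelled with lead. The title and design text name brain injury by lead as the question. Strain, sex, age, dose and duration of exposure are not among the labels, and whether libraries stand for separate fish is not said. A p-value here thus speaks of the spread between libraries, which may be technical.

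Superoxide dismutases turn the superoxide radical into hydrogen peroxide and oxygen, and catalase splits hydrogen peroxide into water and oxygen. The cytosolic copper-zinc enzyme receives its copper from the chaperone CCS, the extracellular enzyme is secreted and held at cell surfaces and matrix, and catalase is a haem enzyme of peroxisomes. None of the 11 genes was described as a further enzyme of this kind, the manganese superoxide dismutase of mitochondria, so it could not be analysed here. Carp descend from an ancestor whose genome was doubled, so many enzymes are encoded by several copies.

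Total counts over all genes ranged from 27841520 in lead replicate 2 to 34848243 in control replicate 1. Neuron markers were read beside the brain label, with no other tissue or threshold to set them against. Their list of 46 genes summed to between 4117 and 5218 TMM-scaled CPM in every library. At 0 throughout were 4 of the genes (3 neurofilament heavy copies and 1 synaptotagmin-1 copy). CPM stands for counts relative to library size, here scaled by trimmed means (TMM). Of the 11 genes, 5 reached 1 FPKM (read fragments relative to transcript length and sequencing depth) in 3 or more libraries and entered the test. The other 6, each an extracellular copy, did not, and are described by their counts.

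The 5 tested genes stood at well separated levels in both groups. By FPKM, which allows levels to be set against each other across genes, the order was cytosolic superoxide dismutase (LOC109097902), catalase LOC109050890, catalase LOC109050889, ccs and the extracellular copy LOC109052871. Means over the 6 libraries were 229.1, 83.6, 45.0, 9.62 and 2.06 FPKM in that order. No neighbours in this order overlapped between their libraries, although the gap between the catalase copies was narrow, from 49.5 FPKM as the highest value of LOC109050889 to 51.1 as the lowest of LOC109050890. The mean FPKM of LOC109097902 exceeded that of 99.4% of all genes in the table, and the means of the catalase copies exceeded 98.0% and 95.9%. The extracellular LOC109052871 lay near the middle of the table, above 50.8% of genes.

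**Figure D1:**
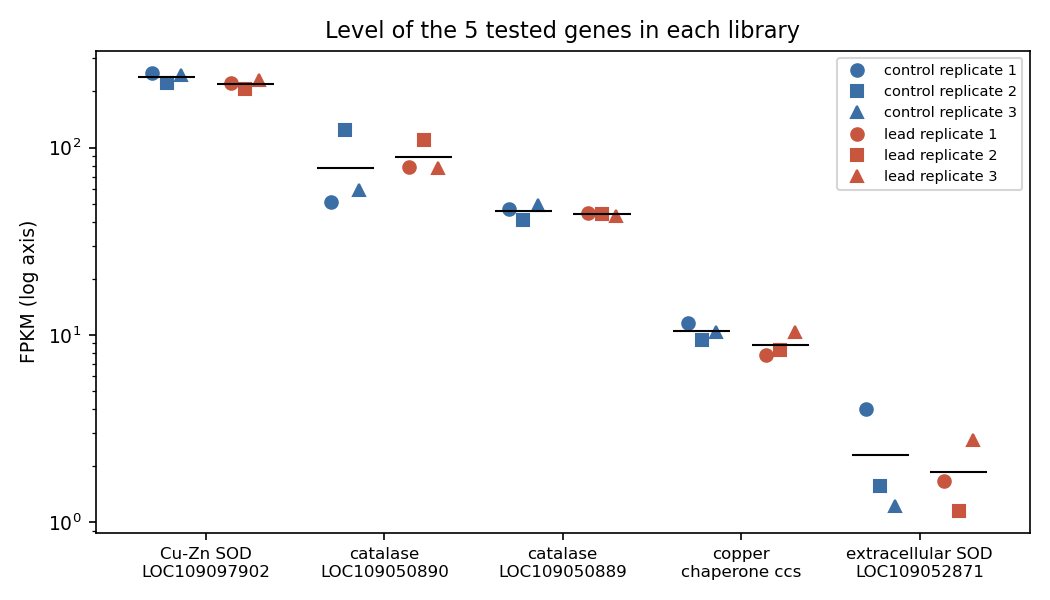
FPKM on a log axis for the 5 tested genes in each of the 6 libraries, with control in blue, lead in red, a marker shape for each replicate number and a bar at each group mean. The groups overlap for all 5 genes, and catalase LOC109050890 is highest in replicate 2 of both groups, at 124.1 and 110.1 FPKM.

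None of the 5 tested genes changed detectably with lead. At an adjusted p under 0.05 edgeR called 0 of the 5 tested genes, against 0.0591% of the 32149 genes tested. At an unadjusted p under 0.05 it was again 0 of 5, where 16.3% of all genes tested passed. DESeq2 also called 0 of 5, against 4.17% of all genes, and limma on log2(FPKM + 1) called 0. The control and lead libraries overlapped in TMM-scaled CPM for each of the 5, and 24.5% of all tested genes had groups that did not overlap. With only 5 genes, a count of 0 beside these shares does not set them apart from other genes. The median log2 fold change of the 5 was -0.02, and that of all tested genes -0.01. How large a change these data leave room for differed among the 5 genes and is given with each below.

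**Figure D2:**
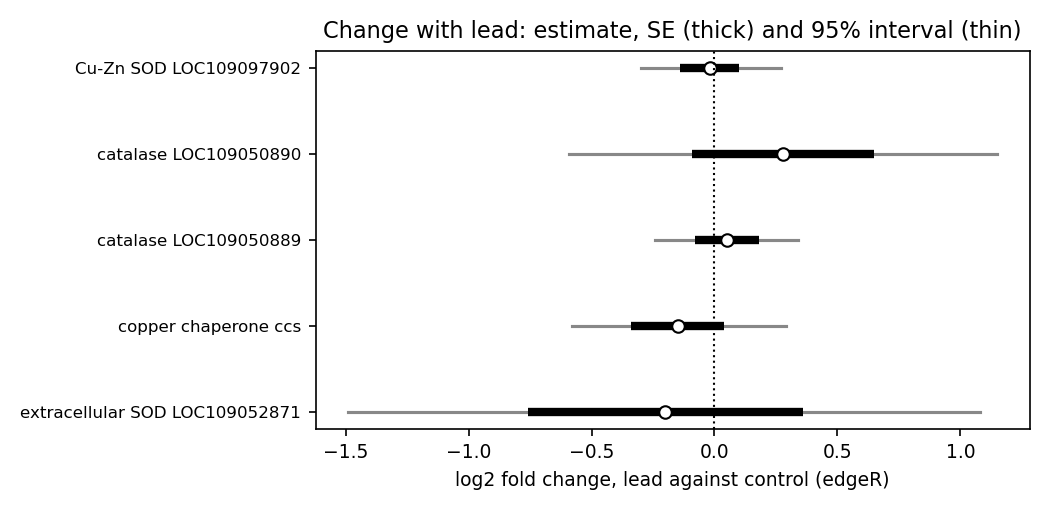
Log2 fold change of lead against control for the 5 tested genes by edgeR, with the estimate as a circle, its standard error as a thick bar and its 95% interval as a thin bar. All 5 intervals include 0, and they run from the narrowest for LOC109097902 (-0.30 to 0.27) to the widest for LOC109052871 (-1.49 to 1.08).

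The cytosolic copper-zinc superoxide dismutase LOC109097902 carries the symbol sod1 for the same gene number in RefSeq's table for another carp assembly (ASM1834038v1). It lies on sequence NC_031716.1 from 7826740 to 7830877 on the minus strand, and no other gene of the table overlaps it. Its TMM-scaled CPM was 215.1, 194.7 and 204.1 in the controls (replicates 1 to 3 in order, here and below). It was 206.5, 194.4 and 205.7 in the lead libraries. The 3 lead values fell within or just below the control range. The group means were 204.6 ± 10.2 CPM without and 202.2 ± 6.78 with lead (SD, n = 3 each), for a log2 fold change of -0.02 (SE 0.12; adjusted p = 0.956, edgeR). As a ratio this was 0.988, with a 95% interval of 0.812 to 1.20. Its highest library exceeded its lowest by a factor of 1.11, where the median over tested genes was 1.99, and only 0.128% of tested genes had a smaller factor. By SD relative to the mean, 5.37% of tested genes were lower in control and 2.7% in lead. Its counts, between 5063 and 7706 per library, made it the most deeply read gene of the group.

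The chaperone ccs, which hands copper to the cytosolic enzyme, was read at a much lower level. It lies on scaffold NW_017543347.1 from 140234 to 144918 on the minus strand. Its CPM was 14.96, 12.5 and 13.1 in the control libraries and 10.96, 11.7 and 13.9 in the lead libraries. Lead replicates 1 and 2 were below all 3 controls, and lead replicate 3 lay among them. The means were 13.5 ± 1.297 and 12.2 ± 1.51 (SD, n = 3 each), for a log2 fold change of -0.15 (SE 0.19; adjusted p = 0.728, edgeR). The ratio of 0.903 had a 95% interval of 0.669 to 1.22. Set against its client enzyme within each library, the FPKM of ccs was 4.61%, 4.24% and 4.25% of that of LOC109097902 in control and 3.52%, 4.01% and 4.47% in lead, so the groups overlapped on this ratio too.

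Of the 7 extracellular superoxide dismutase copies, LOC109052871 had counts in every library. RefSeq's table for the other assembly names it sod3b. In the deposited table it lies on scaffold NW_017537819.1 from 297655 to 298963 on the minus strand. Its counts were 146, 53 and 40 in the control libraries and 54, 34 and 94 in the lead libraries, or 4.08, 1.64 and 1.23 CPM against 1.83, 1.31 and 2.90. Control replicate 1 had the highest value and control replicate 3 the lowest, so the control range enclosed all 3 lead libraries. The means were 2.31 ± 1.54 and 2.01 ± 0.813 CPM (SD, n = 3 each), for a log2 fold change of -0.20 (SE 0.56; adjusted p = 0.881, edgeR). The 95% interval of the ratio ran from 0.357 to 2.12, so ratios anywhere between these limits remained possible. Without control replicate 1 the log2 fold change turned to 0.49 (edgeR adjusted p = 0.712). Control replicate 1 was also the library with the highest summed level of microglia and macrophage markers, 1374 CPM over 17 genes against 614.2 to 786.4 in the other 5. It led as well in oligodendrocyte markers, with 6782 CPM against 3476 to 5451, and in vessel endothelium markers, with 489.5 CPM against 343.4 to 427.2. For neuron markers it was the lowest control, with 4261 CPM. Lead replicate 3, the next highest for LOC109052871, had 747.6 (microglia), 3646 (oligodendrocytes) and 427.2 CPM (endothelium). Control replicate 3, the lowest for this gene, had 659.8, 5451 and 417.0 CPM in the same order. Single genes made up most of 2 of these sums, 69.6% for microglia (an apolipoprotein Eb copy, LOC109057792) and 76.3% for oligodendrocytes (a myelin basic protein copy, LOC109066305). At 0 in every library were 1 microglial gene (macrophage-expressed gene 1 copy LOC109095601) and 3 oligodendrocyte genes (myelin-associated glycoprotein copies). The part of these cells in the level of LOC109052871 was not tested.

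The other 6 extracellular copies were read thinly and unevenly. Control replicate 1 had 0 counts for all of them, and their sum was 36 and 14 in the other controls. It was 12, 63 and 24 in the lead libraries. LOC109074296 had 0 counts in all 6 libraries, which allows at most 0.115 CPM in the shallowest (3 counts, for counting error only). LOC109074293, its neighbour 4471 bases away on scaffold NW_017540581.1, had 20 counts in lead replicate 2 and 0 elsewhere, and is classed as a pseudogene in RefSeq's table for the other assembly.

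A second pair, LOC109047008 and LOC109047009, lies on sequence NC_031739.1 on opposite strands with 20 bases between them. LOC109047008 had 2 counts in control replicate 3, 4 in lead replicate 1 and 20 in lead replicate 2. LOC109047009 had 6 counts in control replicate 2 and 13 in lead replicate 2. Both were at 0 in the remaining libraries, so the pair had its highest counts in the same library, lead replicate 2. LOC109106690 had 16 counts in control replicate 2 and 8, 10 and 8 in the lead libraries. LOC109065717 had 14 and 12 counts in control replicates 2 and 3 and 16 in lead replicate 3. It lies within the span of LOC109065690, described as nucleoside diphosphate-linked moiety X motif 6-like on the other strand, so its reads are uncertain. None of these 6 copies reached the level needed for a test, and no fold is given for them. Counts this low may not be single reads, since over the whole table a count of 4 occurred 7262 times and a count of 1 occurred 779 times. The way such values arose is unknown here.

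**Figure D3:**
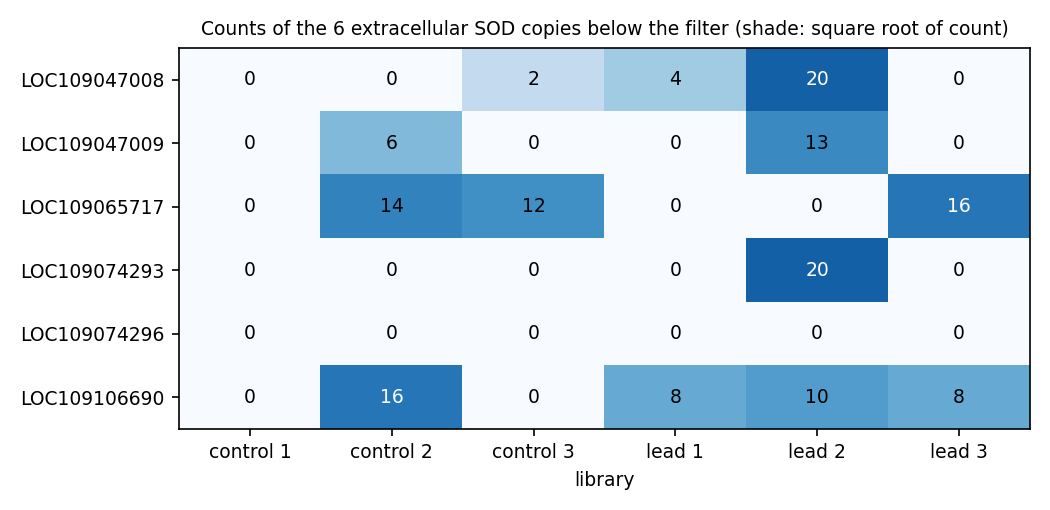
Counts of the 6 untested extracellular superoxide dismutase copies, in rows, in each of the 6 libraries, in columns, with the count printed in each cell and the shade following its square root. Counts are at most 20, control replicate 1 has none, and lead replicate 2 has counts for 4 of the 6 copies.

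The 2 catalase copies lie on the same sequence, NC_031745.1, both on the plus strand, LOC109050889 from 3091035 to 3095777 and LOC109050890 from 3189328 to 3193737. A stretch of 93550 bases with 4 other genes separates them. How the authors assigned reads that match both copies is not given, so the split between them carries that uncertainty.

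LOC109050889 was among the steadiest tested genes by the ratio of its highest to its lowest library. Its CPM was 75.0, 67.8 and 77.3 in the control libraries and 78.3, 77.7 and 72.0 in the lead libraries. Lead replicate 1 was slightly above the highest control, and the groups overlapped. The means were 73.4 ± 4.97 and 76.0 ± 3.46 CPM (SD, n = 3 each), for a log2 fold change of 0.05 (SE 0.13; adjusted p = 0.866, edgeR). The ratio of 1.04 had a 95% interval of 0.845 to 1.27. Its highest library exceeded its lowest by a factor of 1.15, and 0.579% of tested genes had a smaller factor. By SD relative to the mean, 9.48% of tested genes were lower in control and 4.76% in lead.

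LOC109050890 varied between libraries far more than its sister copy. Its CPM was 57.0, 142.9 and 65.0 in the control libraries and 96.6, 135.3 and 90.3 in the lead libraries. Replicate 2 was the highest of each group, and the 3 lead values lay between the highest control and the other 2. The means were 88.3 ± 47.5 and 107.4 ± 24.3 CPM (SD, n = 3 each), for a log2 fold change of 0.28 (SE 0.37; adjusted p = 0.735, edgeR). The ratio of 1.22 had a 95% interval of 0.667 to 2.22. The SD was 53.7% of the mean in control, larger than in 90.2% of tested genes, and 22.7% in lead, where the median over tested genes was 20.3%. Its highest library exceeded its lowest by a factor of 2.51, and 65.3% of tested genes had a smaller factor.

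The size of this estimate rested on single libraries. Without control replicate 2 the log2 fold change of LOC109050890 was 0.82 (SE 0.21; adjusted p = 0.167, edgeR), with all 3 lead libraries above both remaining controls. It came to 0.05 when control replicate 1 was left out, 0.10 when control replicate 3 was, and 0.08 when lead replicate 2 was. None of these fits called it.

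The share of LOC109050890 in the counts of both copies followed the same libraries. It was 43.2% in control replicate 1 (95% Wilson interval 41.8% to 44.6%), 67.8% in control replicate 2 (66.7% to 68.9%) and 45.7% in control replicate 3 (44.2% to 47.1%). In lead replicates 1, 2 and 3 it was 55.2% (53.9% to 56.6%), 63.5% (62.2% to 64.8%) and 55.6% (54.3% to 57.0%). These intervals cover counting error only, and the libraries of one group differed by more than that. The mean share was 52.2% ± 13.6 in control and 58.1% ± 4.66 in lead (SD, n = 3 each), a difference of 5.89 percentage points (exact two-sided permutation test, p = 0.6, the smallest p possible with 3 against 3 being 0.1). Only this share was tested, since no other enzyme had 2 tested copies. Without control replicate 2 the difference was 13.7 percentage points, and without control replicate 1 it was 1.37.

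Both copies together gave 132.0, 210.7 and 142.4 CPM in the control libraries and 174.9, 213.0 and 162.4 in the lead libraries. The sum was thus highest in replicate 2 of both groups, as for LOC109050890 alone. The FPKM of LOC109097902 divided by the summed catalase FPKM was lowest in those 2 libraries, with 2.57, 1.34 and 2.24 in control and 1.78, 1.34 and 1.91 in lead.

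**Figure D4:**
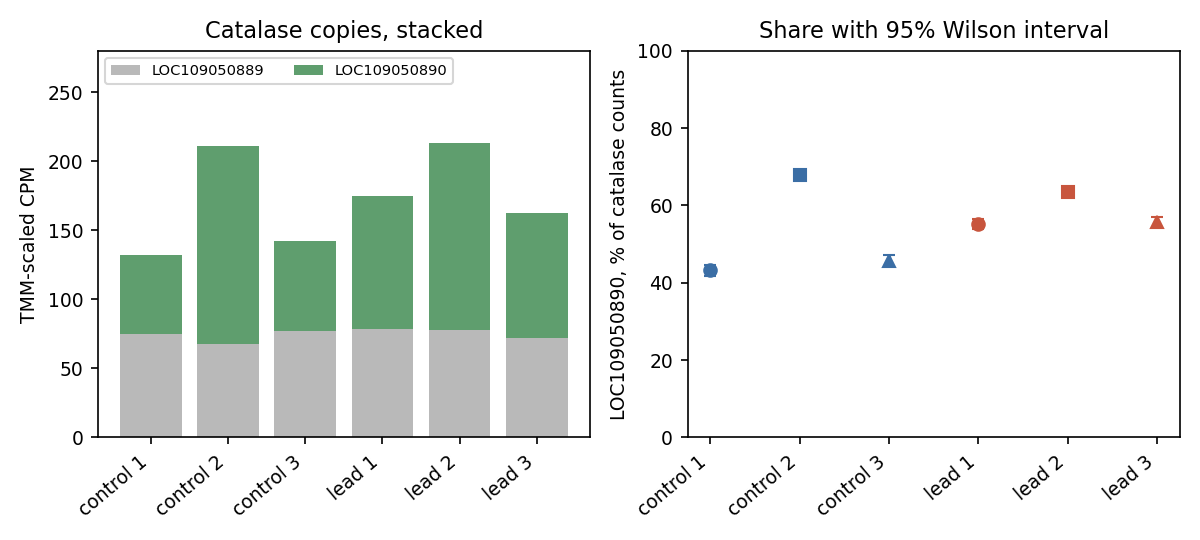
Left, TMM-scaled CPM of the 2 catalase copies stacked for each of the 6 libraries; right, the share of LOC109050890 in the counts of both copies in percent, with its 95% Wilson interval, control in blue and lead in red. The grey part, LOC109050889, stays between 67.8 and 78.3 CPM while the green part, LOC109050890, ranges from 57.0 to 142.9 CPM.

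Markers of cell types were set beside the libraries in which LOC109050890 was high. Red blood cells are rich in catalase, so their markers were read beside it: the list of 28 haemoglobin and other erythrocyte genes summed to 1034, 846.9 and 1246 CPM in the control libraries and to 1461, 1028 and 1162 CPM in the lead libraries. Replicate 2 was thus the lowest of each group for erythrocyte markers and the highest for LOC109050890. Of those 28 genes, 1 was at 0 in every library, a haemoglobin alpha-D copy (LOC109099561). Replicate 2 was also the lowest of each group for microglia markers, with 615.1 CPM in control and 614.2 in lead, and for endothelial markers, with 343.4 and 356.7 CPM. Control replicate 3 was close to it for microglia markers, at 659.8 CPM. For oligodendrocyte markers replicate 2 was the lowest control, with 3476 CPM, but not the lowest lead library. Lead replicates 1 and 2 both had 4102 CPM and lead replicate 3 had 3646. Astroglial markers were highest among controls in replicate 2, with 7053 CPM. In lead replicate 2 they had 5790 CPM, between 5719 and 6363 in the other lead libraries. Neuron markers were at their highest in replicate 2 of each group, with 5218 CPM in control and 4731 in lead, against 4261 and 4920 in the other controls and 4117 and 4394 in the other lead libraries. The part of these cell types in the catalase level was not tested. In bulk tissue, fewer cells of a type and less RNA per cell cannot be told apart.

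Astroglial markers were the one marker list whose sum separated the groups in TMM-scaled CPM, and they did so in summed FPKM too. Their sums were 6494 to 7053 CPM in control and 5719 to 6363 CPM in lead over 26 genes, 1 of them at 0 throughout (the glutamate transporter copy LOC109093838). At an unadjusted p under 0.05, 9 of its 19 tested genes were lower with lead and 1 was higher, where 8.77% of all tested genes were lower and 7.53% higher. None passed the adjusted test by edgeR, and DESeq2 called 8 lower and 1 higher, where it called 4.17% of all tested genes in either direction. Astroglia carry antioxidant enzymes in brain tissue, and the part of their markers in the levels given above was not tested. Of 35 tested neuron markers, 11 were lower and 1 was higher by unadjusted p under 0.05, and DESeq2 called 2 lower. The neuron sums overlapped between the groups in CPM and separated in FPKM, at 2999 to 3575 in control and 2387 to 2938 in lead. Of 24 tested oligodendrocyte markers 4 were lower and none higher by unadjusted p, and DESeq2 called 3 lower. The other lists had 3 lower and 2 higher of 19 (endothelium), 1 lower of 12 (microglia) and 1 in each direction of 11 (erythrocytes). The oligodendrocyte, endothelial, microglia and erythrocyte sums overlapped between the groups in CPM and in FPKM, and edgeR called no cell type marker at an adjusted p under 0.05.

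Genes around superoxide and hydrogen peroxide were read by lists, without a test of any list, and edgeR called no gene of them at an adjusted p under 0.05. Among genes that make superoxide, the NADPH oxidase subunits and xanthine dehydrogenase, 10 of 22 were tested, with a median log2 fold change of -0.05. At an unadjusted p under 0.05, 1 of the 10 was higher and 1 lower. Over all tested genes 7.53% were higher and 8.77% lower, so these counts were close to that background. A copy of neutrophil cytosol factor 4 (LOC109067890), a regulatory subunit of the phagocyte oxidase, had 16.7 ± 5.76 CPM in control and 7.29 ± 3.36 in lead (SD, n = 3 each; adjusted p = 0.229, edgeR). A copy of its catalytic subunit, the cytochrome b-245 heavy chain (LOC109063493), had 4.16 ± 0.426 and 6.49 ± 1.40 CPM (SD, n = 3 each; adjusted p = 0.306, edgeR). These are subunits of one enzyme whose estimates had opposite signs.

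Peroxiredoxins and glutathione peroxidases remove hydrogen peroxide beside catalase, and 14 of 18 genes were tested. Their median log2 fold change was 0.23. At an unadjusted p under 0.05, 2 were higher and none lower (14.3% against 16.3% of all tested genes), and DESeq2 called 1 higher. That gene was a peroxiredoxin-1 copy (LOC109060249), with 23.6 ± 2.84 CPM in control and 62.9 ± 21.9 in lead (SD, n = 3 each), for a log2 fold change of 1.42 (SE 0.26; adjusted p = 0.144 by edgeR and 0.000104 by DESeq2). A glutathione peroxidase 1 copy (LOC109078333) had 31.9 ± 4.10 and 45.5 ± 5.08 CPM (SD, n = 3 each; adjusted p = 0.217, edgeR). In the thioredoxin system, which recharges peroxiredoxins, 9 of 11 genes were tested with a median of -0.27. At an unadjusted p under 0.05, 1 was higher (11.1% of those tested). It was a thioredoxin copy (LOC109108046), with a log2 fold change of 0.75 (SE 0.29; adjusted p = 0.27, edgeR). The mitochondrial thioredoxin reductase 2 copy LOC109098773 had -1.29 (SE 0.57; adjusted p = 0.316, edgeR). This reductase copy was read thinly, at 1.52 ± 0.742 CPM in control and 0.616 ± 0.155 in lead (SD, n = 3 each).

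Regulators of antioxidant genes showed no common direction, with 33 of 44 tested and a median log2 fold change of -0.04. By unadjusted p under 0.05, 1 gene was higher and 2 were lower (9.09%, against 16.3% of all tested genes). The gene nfe2l1, a transcription factor of the antioxidant and proteasome response, had 69.2 ± 1.81 CPM in control and 52.8 ± 5.41 in lead, and keap1, which marks the related factor NRF2 for destruction, had 54.4 ± 6.18 and 70.5 ± 7.85 (SD, n = 3 each). Their edgeR adjusted p-values were 0.24 and 0.288.

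Copper, a metal of the superoxide dismutases followed here, is supplied by transporters and chaperones. Manganese was read beside it as the metal of the mitochondrial superoxide dismutase, which was not among the genes followed. Of 14 genes for copper handling, 12 were tested, with a median log2 fold change of 0.13. At an unadjusted p under 0.05, 1 gene passed in each direction (16.7%, against 16.3% of all tested genes). They were the cytochrome c oxidase copper chaperone copy LOC109052443 (0.48, SE 0.17, edgeR adjusted p = 0.24) and the copper uptake protein 1 copy LOC109090631 (-0.77, SE 0.33, edgeR adjusted p = 0.304). Manganese handling had 16 of 18 genes tested, a median of 0.21 and 2 genes higher, none lower, at an unadjusted p under 0.05. That was 12.5% of those tested, against 16.3% of all tested genes. The slc25a39 copy LOC109046650, a mitochondrial carrier, had 41.6 ± 0.543 CPM in control and 60.5 ± 5.95 in lead (SD, n = 3 each; adjusted p = 0.182 by edgeR and 0.0156 by DESeq2). It made up 21.4% of the summed level of this list and was its 1 call by DESeq2. This carrier entered the list by its description, and whether it handles manganese was not tested. LOC109099043, a copy of the divalent metal transporter also called natural resistance-associated macrophage protein 2, had a log2 fold change of 0.65 (SE 0.18; adjusted p = 0.2, edgeR).

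Catalase is imported into peroxisomes after it is made. Of 31 genes for peroxisome biogenesis 28 were tested, with a median log2 fold change of 0.11 and 3 higher, none lower, at an unadjusted p under 0.05. That was 10.7% of those tested, against 16.3% of all tested genes. A PEX16 copy, LOC109067148, a membrane assembly factor, had 15.9 ± 1.52 CPM in control and 24.97 ± 1.88 in lead (SD, n = 3 each; adjusted p = 0.181 by edgeR and 0.0191 by DESeq2). Its log2 fold change was 0.66, while the tested gene with the symbol pex16 had -0.4, so the estimates had opposite signs. LOC109081210, a copy of the peroxisomal biogenesis factor PEX19, had 47.3 ± 14.0 and 69.4 ± 7.82 CPM (SD, n = 3 each; adjusted p = 0.302, edgeR). Peroxisomal oxidases that produce hydrogen peroxide had 7 of 11 genes tested, a median of -0.10 and 1 gene lower (14.3%) at an unadjusted p under 0.05. It was pipox, the sarcosine oxidase, with a log2 fold change of -0.94 (SE 0.35; adjusted p = 0.26, edgeR). The D-amino-acid oxidase copy LOC109083180 had -0.63 (SE 0.30; adjusted p = 0.34, edgeR).

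In summed TMM-scaled CPM, 4 of these process lists separated the groups, each higher in all lead libraries. Peroxiredoxins and glutathione peroxidases summed to 390.4 to 413.5 in control and 449.1 to 673.1 in lead, copper handling to 81.4 to 88.8 and 94.8 to 108.6. Manganese handling summed to 212.4 to 231.4 and 233.0 to 279.3, peroxisome biogenesis to 432.4 to 477.6 and 485.5 to 552.5. Gene by gene, the groups did not overlap for 3 higher and 0 lower of 14 tested peroxiredoxins and glutathione peroxidases. For copper handling it was 1 higher and 2 lower of 12, for manganese handling 4 and 1 of 16, for peroxisome biogenesis 4 and 1 of 28. Over all tested genes the share was 24.5%, and no such share was computed for sums of genes. Which lists separated depended on the scale, by settings added once the values were known. With library totals as the sole scaling the groups overlapped for all 4 sums. In summed FPKM manganese handling still separated (95.1 to 98.2 in control, 99.6 to 111.7 in lead) and the other 3 overlapped. In FPKM the superoxide sources also separated, lower in lead (60.6 to 80.95 against 49.2 to 57.1), as did the peroxisomal oxidases (46.6 to 52.2 against 44.4 to 45.4).

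**Figure D5:**
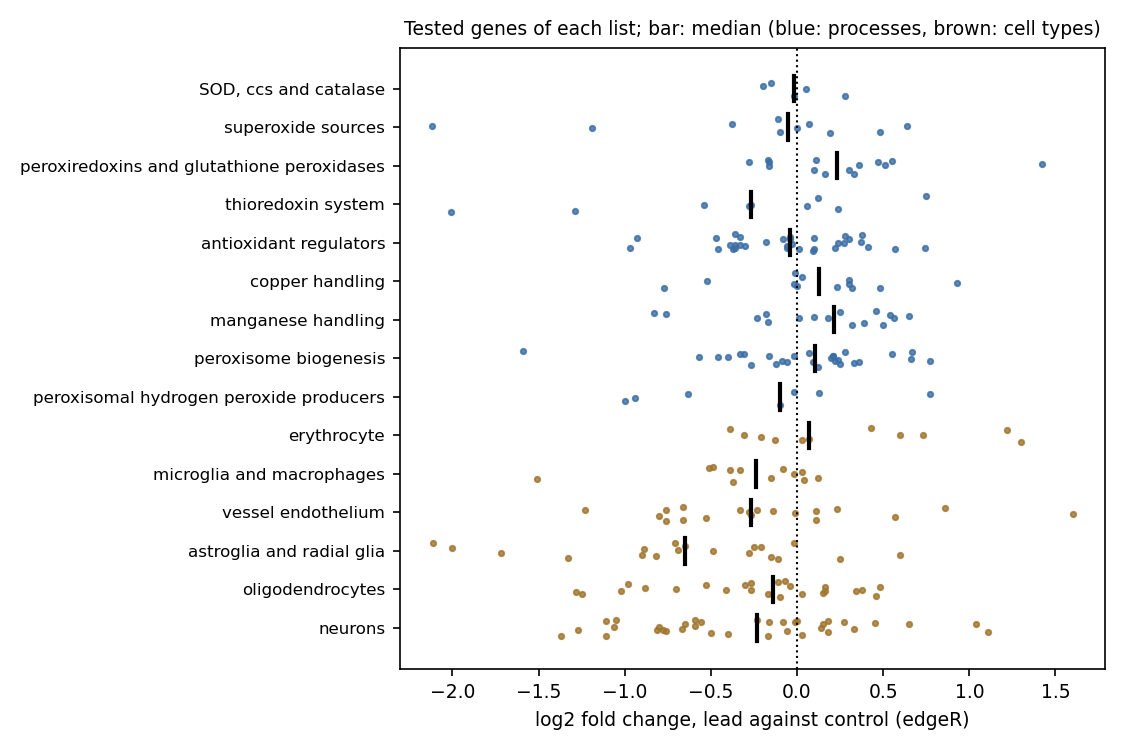
Log2 fold change of lead against control by edgeR for each tested gene of the group (top row), of 8 process lists (blue) and of 6 lists of cell type markers (brown), with a black bar at each median. The 5 superoxide dismutase, chaperone and catalase genes lie close to 0, with a median of -0.02, and the astroglial list has the lowest median, -0.65.

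For the most abundant tested gene of each enzyme, the genes with the most similar course over the 6 libraries were sought by Pearson's r of log2(CPM + 1), as a description. For LOC109097902 the closest was hpgd, a prostaglandin-degrading dehydrogenase (r = 0.995), then LOC109080471 (r = 0.995) and the formin-like LOC109081057 (r = 0.993), and 105 genes reached 0.95. For catalase LOC109050890 it was a cytosolic carboxypeptidase 6 copy (LOC109085176, r = 0.996), followed by an EDEM3-like mannosidase (LOC109095466, r = 0.994) and an SRRM2-like gene (LOC109052504, r = 0.993), and 104 genes reached 0.95. For ccs it was a cofilin-2 copy (LOC109083581, r = 0.994), then the zinc finger gene LOC109111978 (r = 0.994) and a guanylate-binding protein 1 copy (LOC109061557, r = 0.987), with 78 genes at 0.95 or more. For the extracellular LOC109052871 it was a MOB kinase activator copy (LOC109093486, r = 0.992), then ppp1r18 (r = 0.991) and a C-C chemokine receptor 5 copy (LOC109059491, r = 0.99), with 48 genes at 0.95 or more. With 6 libraries and 32149 genes, values this high are common, and the libraries share their depth and makeup. None of the genes named here passed the adjusted test.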

How the data were processed

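Brain RNA of 3 control and 3 lead libraries was analysed from 1 deposited gene table. Per the labels' protocols, RNA was extracted with Trizol, selected on poly-T beads and sequenced in pairs. The submitters' processing notes list Bowtie 0.12.2, HISAT2 2.0 and StringTie 1.3.0 with no roles, and a mouse build; the carp assembly behind the positions was not stated. Per the file headers, the authors deposited a count and an FPKM for each gene and library. Counts are whole numbers with no scaling named, and low values among them are more often even than odd, for a reason that was not tested. FPKM is scaled by the authors to transcript length and library size. Strand setting and multi-mapping rule were not given in the sources used here.

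Counts were tested with edgeR 4.0.16 (R 4.3.3; TMM, robust quasi-likelihood) over 32149 genes that reached 1 FPKM in 3 or more libraries, with Benjamini-Hochberg adjustment and calls at an adjusted p under 0.05. The biological coefficient of variation was 36.6%. SEs and 95% intervals follow from the test statistic and its degrees of freedom. The fit was also run on simulated counts, with changes placed only in well-counted genes, and no result above rests on that run. The share of a catalase copy was compared over libraries by an exact two-sided permutation test. Alternatives were limma 3.58.1 on log2(FPKM + 1) and log2(FPKM + 0.1), DESeq2 1.42.0, other filters and scalings, a replicate block and leaving out each library. Members and lists were chosen with earlier results of these data known. Lists were matched on descriptions, and genes of another kind caught by the same letters were removed by name. The text names all members, the 2 genes of smallest p in each process list, pex16 beside its copy, and genes like the most abundant member of each enzyme. Of the 11 members, 8 matched by gene number in the RefSeq table of another assembly, used for names only.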

Additional observations from a re-analysis of the deposited data

How the results depend on the processing

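No member was called under any of the 14 alternatives run. The log2 fold change kept its sign in all 14 for LOC109050890 (0.05 to 0.82) and for ccs (-0.25 to -0.07). For LOC109097902 it was 0.0013 with no low-value filter, 0.0042 with filterByExpr, 0.02 without control replicate 1 and 0.01 without lead replicate 2. For LOC109050889 it was -0.05 with limma on log2(FPKM + 1) or log2(FPKM + 0.1), -0.06 with library totals only and -0.0027 without control replicate 2. For LOC109052871 it was 0.49 without control replicate 1 and 0.03 without lead replicate 2. With 1 library left out it lay between -0.05 and 0.02 for LOC109097902, -0.0027 and 0.09 for LOC109050889, and -0.57 and 0.49 for LOC109052871. Library totals only moved the median of all genes to -0.11, as did limma on log2(FPKM + 0.1), and LOC109097902 then had -0.12 in both. Of all genes tested 19 were called, against 30 with no low-value filter, 1340 with DESeq2 and 1 with the replicate block, and between 4 and 25 with 1 library left out. The cause of these differences was not tested. The catalase share difference ranged from 1.37 to 13.7 percentage points with 1 library left out. Whether same-numbered libraries were paired could not be settled. Correlations of their deviations were 0.171, 0.0651 and 0.126 for numbers 1, 2 and 3, and differently numbered pairs ran from -0.198 to 0.0812. Each control library was closest to the lead library of its own number, but lead replicate 2 was closer to control replicate 3, at 0.0812. With the replicate block LOC109050890 had 0.39 (SE 0.19, unadjusted p = 0.0872 and adjusted p = 0.326, edgeR), and no member was called. In the main fit the SE of LOC109050890 was 0.37 and its unadjusted p 0.467 (edgeR). With 3 libraries a group, LOC109097902 and LOC109050889, of the 5 tested, had main-fit intervals that leave out a change of 1.5 times in either direction. The interval of ccs left it out only barely, with a lower limit of 0.669 for the ratio. The log2 fold change of ccs moved from -0.15 to -0.25 with library totals only and without lead replicate 3. Intervals were not computed for those fits.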

Other observations

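Genes outside the description rule carried the same enzyme codes in the table. The code of cytosolic copper-zinc superoxide dismutase was also given to LOC109098068, a hypothetical protein, and to LOC109064071, an uncharacterized protein. LOC109098068 had 26.7, 19.0 and 21.2 CPM in the control libraries and 29.0, 22.5 and 29.4 in the lead libraries, a log2 fold change of 0.27 (SE 0.19; adjusted p = 0.511, edgeR). LOC109064071 had 5.64, 2.92 and 3.96 CPM in control and 2.27, 1.73 and 2.90 in lead, and was too low for the filter. With no filter its log2 fold change was -0.84 (SE 0.39; adjusted p = 0.433, edgeR). The catalase code was given to 4 further genes, 3 of them described as ras-GEF domain proteins and 1 as a hypothetical protein (LOC109083036). Sums by enzyme code would thus differ from sums by description.

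Low values in the count columns were more often even than odd, with 61.4% even among the 47764 values from 1 to 20 and 49.8% among larger values up to 1000. The 13 values above 0 of the untested extracellular copies lay in the range from 1 to 20, and 12 of them were even.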
